A study of Mus musculus with 24 samples.

Results

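The interferon regulatory factors (IRFs) and the signal transducers and activators of transcription (STATs) are transcription factors that carry interferon and cytokine signals to the nucleus. The 9 genes described here are Irf1, Irf2, Irf3, Irf5, Irf7, Irf8, Irf9, Stat2 and Stat3. They were taken by symbol from the gene entries of the deposited count table, and all 9 were found among its 47937 genes. After low counts were filtered out, 18565 genes were tested, 8 of the 9 among them; Irf8 had too few counts.

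RNA was sequenced from mouse embryonic fibroblasts (MEFs) that had lost up to 6 of the enzymes that methylate histone H3 at lysine 9 (H3K9). There were 24 libraries in 8 conditions, 3 replicates each. Every line carries a conditional Eset1 allele (Eset1 is Setdb1), which is deleted when 4-hydroxytamoxifen (4-OHT) activates the CreERT2 recombinase, and each line is 1 clone grown from a single cell. 4-OHT was given for 2 days and was followed by 2 days without it. The other mutations were made with CRISPR/Cas9, and per the study's methods the lines that carry them received a further CreERT2 construct and were kept in puromycin. WT is the conditional line, clone E25, without 4-OHT, and E1 is the same clone after 4-OHT. E2 is clone A4, which lost Eset2 (Setdb2) and was not given 4-OHT, so it keeps Eset1. E1E2 is A4 after 4-OHT. E1S1S2 is clone B1 after 4-OHT, which lost Eset1, Suv39h1 and Suv39h2. 6KO1 is clone B1A6, made from B1 by also inactivating Eset2, G9a (Ehmt2) and Glp (Ehmt1), after 4-OHT. E1E2G9Gl, after 4-OHT, is a clone made from A4 that lost Eset1, Eset2, G9a and Glp; it is labelled E2 but is not the condition E2. 6KO2 is clone E2F4, made from that clone by also inactivating Suv39h1 and Suv39h2, after 4-OHT.

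The sample titles mark WT and E2 as controls, while the treatment field lists 4-OHT at 1 µM for every sample; the titles were followed. No line without a conditional Eset1 allele was given 4-OHT, so the agent and the loss of Eset1 cannot be told apart. Since each line is 1 clone, its mutations and the history of that clone, with the further construct and puromycin where given, cannot be told apart, and the p-values below measure the spread between replicate samples of a clone, not between clones. Total counts per library ran from 24737307 to 37419816 with a median of 30218612, of which 19541909 to 31489070 fell on genes. Replicate 2 of WT stands apart: the chi-square per gene between replicates, a measure of how far their counts differ beyond counting error, was 62.8 and 52.5 for it against replicates 1 and 3. It was 4.72 between replicates 1 and 3 of WT and at most 23.2 within any other condition.

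Cells that sense foreign nucleic acid activate IRF3 and IRF7, which switch on the genes of type I interferons. Secreted interferon binds its receptor on the same or a neighbouring cell, Janus kinases phosphorylate STAT proteins, and STAT2 joins IRF9 in a complex, ISGF3, that binds interferon-stimulated response elements (ISREs) and induces antiviral genes, Irf7 included. Interferon-gamma and cytokines of the interleukin-6 family act through STAT dimers on gamma-activated sites (GAS); IRF1 is induced by interferon-gamma and IRF2 binds the same elements as IRF1.

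The RNA of the targeted enzymes was read first, as a check of the labels. A gene was called when its level differed at least 2-fold (a log2 fold change of 1 or more in size) with an adjusted p of at most 0.01 in edgeR's quasi-likelihood test. Against WT, Setdb2 fell by 1.36 on the log2 scale in E2, 1.43 in E1E2, 1.55 in E1E2G9Gl and 1.39 in 6KO2, and was at -0.90 in 6KO1, not called. Suv39h1 fell by 1.14 in E1S1S2 and by 1.73 in 6KO1, and its log2 fold change in 6KO2 was -0.81. Ehmt1 and Ehmt2 fell by 1.05 and 1.32 in 6KO1 and by 1.40 and 1.69 in E1E2G9Gl; in 6KO2, where they were also targeted, they were at -0.945 and -0.564 and not called. Setdb1 had log2 fold changes from -0.57 to -0.58 in E1, E1S1S2 and 6KO1, -0.31 in both E2 and E1E2 and -0.95 in 6KO2, and fell by 1.19 in E1E2G9Gl. Its RNA thus did not tell E2, which keeps Eset1, from E1E2, which lost it. Suv39h2 did not follow its labels either: where targeted, it was at 0.77 in E1S1S2, 0.14 in 6KO1 and -0.96 in 6KO2, and it fell by 1.47 in E1E2G9Gl, where it was not targeted. A frameshift or a deletion of part of a gene need not lower its RNA, and per the study's methods the clones were picked by western blot, or for Eset2 by sequencing, so these levels do not show whether an allele is functional.

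The cells were also checked for fibroblast genes. Of 16 fibroblast markers, the summed level lay between 7304 and 9227 CPM in WT (CPM is the count per 1000000 counts of the library, after normalisation), between 4422 and 4996 in 6KO1, and between 9636 and 10410 in E1E2G9Gl. It lay between 6574 and 7272 CPM in E1, 6239 and 6886 in E1S1S2, 6188 and 6607 in E1E2 and 6258 and 6417 in 6KO2, all below WT, and between 6855 and 7715 in E2, which overlapped WT. Vim was the most abundant of them in 21 of the 24 libraries, and from 0 to 3 of the 16 were at 0. In 6KO1, 7 of the 15 fibroblast markers tested fell, where 10.2% of all genes were called lower, and 1 rose. The number that fell was 3 in E1, 6 in E1S1S2, 3 in each of E2, E1E2 and E1E2G9Gl and 2 in 6KO2, where 1.99%, 5.11%, 3.21%, 3.22%, 8.41% and 5.39% of all genes were called lower. Markers of the list also went up in these mutants. Fap was called higher in E1, at a mean of 0.302 CPM against 0 in WT, and Dcn rose by 1.62 in E2. In E1E2G9Gl the mean levels of Col3a1 and S100a4 were 1920 and 377 CPM, against 714 and 109 in WT. In 6KO1 Pdgfra fell by 5.35 on the log2 scale, Dcn went from a mean of 1.43 CPM in WT to 0.0229, and Fap went from 0 to 3.30 CPM. Thy1 went from 7.86 CPM in WT to 0.0116 in 6KO1, 0.034 in E1S1S2 and 0.0695 in 6KO2. It was at 7.35 CPM in E1, 1.07 in E2 and 1.95 in E1E2, and at 16.3 in E1E2G9Gl, above WT. Dcn was at 0.413 CPM in E1 and 0.0816 in E1E2G9Gl, but above WT in E1S1S2 (1.86), E2 (4.38), E1E2 (3.66) and 6KO2 (5.46). Pdgfra, Dcn, Fap, Thy1, Col3a1 and S100a4 are named after their values were seen.

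IRF7 amplifies the type I interferon response, and its own gene is a target of interferon. Irf7 (ENSMUSG00000025498) lies at chr7:141262706-141266481 on the minus strand of GRCm38, with 3776 exon bases. Its promoter, from 250 bases before to 50 bases after the start of the RefSeq transcript (chr7:141266375-141266674, minus strand, build GRCm38.p6), is shown because Irf7 had the largest log2 fold change against WT among the 8 genes tested. The promoters were searched on both strands for the letters of the ISRE core, GAAANNGAAA, and of the GAS, TTCNNNGAA; capitals mark a match. Neither set of letters is in this window, which says nothing about either factor.
Irf7: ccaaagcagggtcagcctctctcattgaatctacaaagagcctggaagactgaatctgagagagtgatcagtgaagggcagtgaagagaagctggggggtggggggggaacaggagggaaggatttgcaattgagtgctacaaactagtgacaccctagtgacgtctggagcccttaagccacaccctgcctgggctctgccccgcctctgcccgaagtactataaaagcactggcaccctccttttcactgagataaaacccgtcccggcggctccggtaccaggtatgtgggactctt
Of 32851 RefSeq promoter windows of this length, 3.44% hold the ISRE core letters and 8.30% the GAS letters; by gene, the shares are 3.99% and 9.55% of 27025. A match to such short letters is a description and not a binding site. The 9 genes have 12 windows, with ISRE core letters in the windows of 2 genes, Irf2 and Stat2, and GAS letters in those of 3, Irf1, Irf2 and Irf8.

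Irf7 RNA was close to absent in WT and rose in every mutant. The WT libraries had 0.758, 0.649 and 0.674 CPM. The E1 libraries had 2.89, 2.26 and 2.92 CPM, the E1S1S2 libraries 12.8, 10.3 and 12.4, and the 6KO1 libraries 92.0, 93.0 and 94.4. In that series each condition lay wholly above the one before it. The E2 libraries had 5.55, 1.49 and 6.01 CPM, the E1E2 libraries 16.3, 18.6 and 14.6, the E1E2G9Gl libraries 33.2, 32.5 and 33.0, and the 6KO2 libraries 12.0, 6.59 and 13.2. All 7 mutants lay above the WT libraries, and 6KO1 lay above every other library, while replicate 2 of E2 and replicate 2 of 6KO2 were low within their conditions. In order of mean level, E1 and E2 overlapped, and so did 6KO2 and E1S1S2; the other neighbours were apart.

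Against WT, Irf7 rose by 1.96 on the log2 scale in E1 (SE 0.44, adjusted p = 0.00223 in edgeR, n = 3 against 3 here and below), by 4.09 in E1S1S2 (SE 0.36, adjusted p = 1.98e-09) and by 7.06 in 6KO1 (SE 0.33, adjusted p = 6.72e-15), which is 134-fold. It rose by 2.59 in E2 (SE 0.42, adjusted p = 3.58e-05 in edgeR), by 4.56 in E1E2 (SE 0.35), by 5.56 in E1E2G9Gl (SE 0.34, 47.2-fold) and by 3.93 in 6KO2 (SE 0.37). The rise in E1 was the least certain: its log2 fold change was 1.91 without replicate 2 of WT and 1.94 without replicate 3 of WT, and neither passed the adjusted p. All 7 comparisons use the same 3 WT libraries, so an error in those libraries would move all of them. Without replicate 2 of WT, the library that stands apart, Irf7 was at 4.04 in E1S1S2, 7.01 in 6KO1, 2.53 in E2, 4.52 in E1E2, 5.51 in E1E2G9Gl and 3.89 in 6KO2, all called.

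IRF9 binds the DNA in ISGF3, and STAT2 brings the activation domain. Irf9 (ENSMUSG00000002325, chr14:55603571-55610030, plus strand) shares 123 of its 5386 exon bases with Rnf31 on the same strand, so reads there could belong to either gene. Stat2 (ENSMUSG00000040033, chr10:128270559-128292849, plus strand, 5926 exon bases) overlaps no other exon. The Stat2 promoter (chr10:128270248-128270547, plus strand, GRCm38.p6, RefSeq) is shown because it holds ISRE core letters, read on the minus strand, at positions -222 to -213 from the start.
Stat2: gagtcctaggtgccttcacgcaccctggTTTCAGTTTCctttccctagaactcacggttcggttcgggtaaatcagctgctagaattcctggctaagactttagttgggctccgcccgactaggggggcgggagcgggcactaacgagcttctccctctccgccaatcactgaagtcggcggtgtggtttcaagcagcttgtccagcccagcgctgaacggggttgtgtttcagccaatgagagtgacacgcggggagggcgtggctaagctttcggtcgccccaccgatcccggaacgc
The promoter windows of Irf9, at chr14:55603735-55604034 and chr14:55604329-55604628, hold neither set of letters.

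Irf9 and Stat2 moved with Irf7 over a smaller range. The WT libraries had 14.6, 13.6 and 14.7 CPM of Irf9, the E1 libraries 17.2, 17.1 and 18.1, the E1S1S2 libraries 32.4, 32.5 and 32.4, and the 6KO1 libraries 90.5, 95.2 and 94.9. In the other series Irf9 was at 30.7, 12.2 and 29.2 CPM in E2, at 45.9, 42.5 and 43.5 in E1E2, at 64.7, 65.6 and 66.2 in E1E2G9Gl and at 33.6, 22.8 and 34.2 in 6KO2. Replicate 2 of E2 lay below every WT library, so E2 overlapped WT; the other 6 mutants lay above WT. Stat2 had 19.5, 15.2 and 17.8 CPM in WT, 22.0, 22.6 and 19.5 in E1, 40.5, 38.2 and 40.7 in E1S1S2 and 66.7, 61.4 and 66.6 in 6KO1. It had 33.2, 23.5 and 36.5 CPM in E2, 42.6, 42.5 and 41.7 in E1E2, 81.1, 64.6 and 69.3 in E1E2G9Gl and 32.2, 26.2 and 38.3 in 6KO2. E1 overlapped WT for Stat2 and the other 6 mutants lay above it; unlike Irf7 and Irf9, Stat2 had overlapping ranges in E1E2G9Gl and 6KO1.

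Irf9 rose by 1.18 on the log2 scale in E1S1S2 (SE 0.20), by 2.71 in 6KO1 (SE 0.20, adjusted p = 2.41e-11 in edgeR), by 1.62 in E1E2 (SE 0.20), by 2.19 in E1E2G9Gl (SE 0.20) and by 1.08 in 6KO2 (SE 0.20, adjusted p = 6.07e-05). The call in 6KO2 sat at the 2-fold limit: the value was 0.99 without replicate 1 and 0.98 without replicate 3 of 6KO2, and neither was called. In E2 the log2 fold change of Irf9 was 0.73 and not called, but 1.07 and called without replicate 2 of E2. Stat2 rose by 1.19 in E1S1S2 (SE 0.13), 1.89 in 6KO1 (SE 0.13, adjusted p = 1.40e-11 in edgeR), 1.27 in E1E2 (SE 0.14) and 2.04 in E1E2G9Gl (SE 0.14). In 6KO2 its log2 fold change was 0.88, not called, and it was 1.01 and called without replicate 2 of 6KO2. In E1 neither gene was called, at 0.29 each.

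IRF1 activates and IRF2 mostly represses genes through overlapping elements. Irf1 (ENSMUSG00000018899, chr11:53770014-53778374, plus strand, 3976 exon bases, 135 of them opposite an exon of Gm17334) has GAS letters at positions -90 to -82 from its start in the window chr11:53769764-53770063. Irf2 (ENSMUSG00000031627, chr8:46739732-46847458, plus strand, 7396 exon bases) has both ISRE core letters, at -241 to -232, and GAS letters, at -224 to -216, in the window chr8:46739495-46739794. Both windows, plus strand of GRCm38.p6 from RefSeq, are shown since they carry the letters of the elements through which interferons act.
Irf1: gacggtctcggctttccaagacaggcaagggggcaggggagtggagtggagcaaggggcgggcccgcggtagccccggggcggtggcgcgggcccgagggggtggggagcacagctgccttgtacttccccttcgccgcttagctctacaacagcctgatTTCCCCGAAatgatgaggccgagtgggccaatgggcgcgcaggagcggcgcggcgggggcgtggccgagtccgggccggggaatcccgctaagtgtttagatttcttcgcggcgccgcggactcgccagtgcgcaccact
Irf2: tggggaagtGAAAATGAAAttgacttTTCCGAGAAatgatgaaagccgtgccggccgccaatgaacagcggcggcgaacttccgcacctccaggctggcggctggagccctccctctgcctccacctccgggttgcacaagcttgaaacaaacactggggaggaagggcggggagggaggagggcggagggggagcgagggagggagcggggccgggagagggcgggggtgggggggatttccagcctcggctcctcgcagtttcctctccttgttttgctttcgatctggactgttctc
Irf1 was abundant in WT, at 76.5, 89.8 and 80.1 CPM. It was at 70.5, 65.1 and 71.4 CPM in E1, at 122, 116 and 121 in E1S1S2 and at 137, 149 and 149 in 6KO1. It was at 138, 97.1 and 111 CPM in E2, at 173, 135 and 135 in E1E2, at 62.1, 66.1 and 68.3 in E1E2G9Gl and at 109, 159 and 114 in 6KO2. The libraries of 5 mutants lay above WT, and those of E1 and E1E2G9Gl lay below. None of these differences reached 2-fold: the log2 fold changes against WT were -0.25 in E1, 0.54 in E1S1S2, 0.82 in 6KO1, 0.49 in E2, 0.85 in E1E2, -0.33 in E1E2G9Gl and 0.63 in 6KO2. Irf2 ran from 9.05 to 11.5 CPM in WT and from 12.0 to 21.8 in the mutants, all of which lay above WT. Its log2 fold changes, from 0.27 in E1 to 0.94 in 6KO1, were not called, but leaving out replicate 1 of WT brought Irf2 to 1.01 in 6KO1 and 1.00 in E1E2, and both were then called.

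IRF5 acts downstream of Toll-like receptors and drives inflammatory cytokine genes. Irf5 (ENSMUSG00000029771, chr6:29526625-29541871, plus strand, 2905 exon bases, 411 of them opposite exons of Tnpo3, where reads could belong to either gene if strand was not used in counting) has neither set of letters in its window at chr6:29526375-29526674. The WT libraries had 2.78, 2.96 and 3.09 CPM, the E1 libraries 4.52, 4.91 and 5.25, the E1S1S2 libraries 9.03, 8.30 and 8.53, and the 6KO1 libraries 42.8, 42.6 and 39.8. The E2 libraries had 8.55, 4.75 and 8.83 CPM, the E1E2 libraries 19.7, 13.3 and 14.3, the E1E2G9Gl libraries 2.22, 1.64 and 1.94, and the 6KO2 libraries 13.97, 13.7 and 13.5. In 6 mutants every library lay above WT, whereas E1E2G9Gl, where Irf7, Irf9 and Stat2 were high, lay below WT. Irf5 rose by 1.55 on the log2 scale in E1S1S2 (SE 0.18), 3.82 in 6KO1 (SE 0.17, adjusted p = 2.71e-15 in edgeR), 1.30 in E2 (SE 0.19), 2.42 in E1E2 (SE 0.17) and 2.22 in 6KO2 (SE 0.18, adjusted p = 1.96e-10). It was not called in E1 (0.73) or in E1E2G9Gl (-0.60, adjusted p = 0.0227 in edgeR).

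IRF3 is present in resting cells and is activated by phosphorylation, and STAT3 carries the signals of the interleukin-6 family. Irf3 (ENSMUSG00000003184, chr7:44997648-45002848, plus strand, 3442 exon bases) ran from 24.5 to 27.3 CPM in WT, from 22.7 to 28.4 in 6 of the mutants, and from 17.3 to 20.3 in 6KO2. Irf3 thus moved little, and E1E2 and 6KO2 lay wholly below WT while the other 5 mutants overlapped it; its log2 fold change of -0.44 in 6KO2 (SE 0.07, adjusted p = 8.23e-06 in edgeR) was under 2-fold. Stat3 (ENSMUSG00000004040, chr11:100885098-100939540, minus strand, 9527 exon bases) had 60.6, 46.9 and 60.9 CPM in WT, 92.6, 85.9 and 86.4 in 6KO1, 89.2, 89.4 and 89.1 in E1E2G9Gl and 77.1, 76.2 and 79.6 in 6KO2. Those 3 mutants and E1E2 lay above WT, with log2 fold changes of 0.66 in 6KO1, 0.67 in E1E2G9Gl, 0.47 in 6KO2 and 0.30 in E1E2, none of them called. Irf3 shares 88 exon bases with Bcl2l12 on the other strand, Irf7 shares 45 with Phrf1, and Stat3 shares 72 with a neighbour on the other strand.

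IRF8 is needed by myeloid and B cells. Irf8 (ENSMUSG00000041515, chr8:120736358-120756694, plus strand) had 23 counts over the 24 libraries, 0 in 12 of them and at most 4 in any. All 6 libraries of WT and E2 were at 0, which allows up to 0.106 to 0.141 CPM (3 counts per library, counting error only), and no fold change is given.

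**Figure D1:**
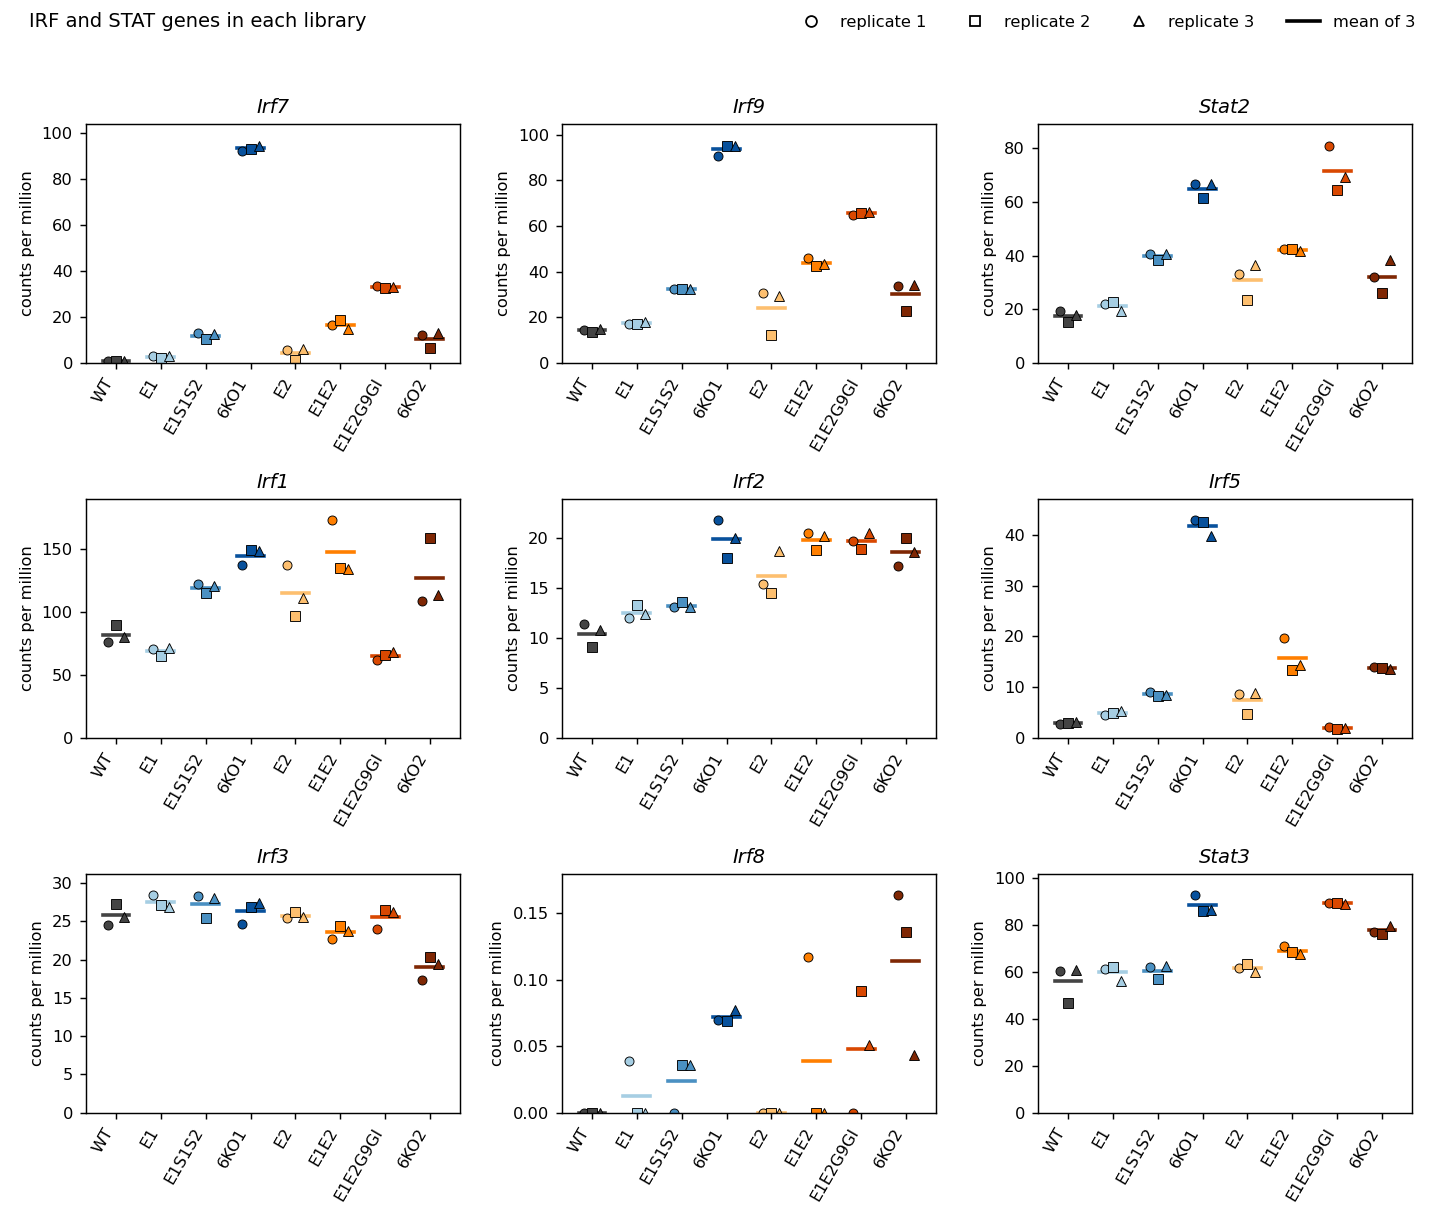
Level of each of the 9 genes (y axis, CPM) in each library (points, shaped by replicate) of the 8 conditions (x axis), with the mean of the 3 replicates as a line. Irf7 goes from 0.649 to 0.758 in WT to 92.0 to 94.4 in 6KO1, and Irf5 is at 1.64 to 2.22 in E1E2G9Gl, below its 2.78 to 3.09 in WT.

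Per length, the order of the genes changed between conditions. In WT, mean CPM per kilobase of exon was 20.7 for Irf1 (SD 1.72), 7.49 for Irf3, 5.89 for Stat3, 2.95 for Stat2, 2.66 for Irf9, 1.41 for Irf2, 1.01 for Irf5 and 0.184 for Irf7 (SD 0.0151), the lowest of the 8 genes tested. In 6KO1, Irf7 came after only Irf1, at 24.7 CPM per kilobase (SD 0.320) against 36.5 (SD 1.66), and was followed by Irf9 at 17.4 and Irf5 at 14.4. In E1E2G9Gl, Irf1 at 16.5 was followed by Irf9 at 12.2 and Stat2 at 12.1, Irf7 stood in place 5 at 8.71, and Irf5 was the lowest at 0.666. Irf1 held the highest mean in all 8 conditions.

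The comparisons with WT ask which of these genes respond to each loss of H3K9 methyltransferases. In E1, 1 of the 8 genes tested rose (Irf7), where 2.27% of all genes tested were called higher. In E1S1S2, 4 rose (Irf5, Irf7, Irf9 and Stat2), with 6.65% of all genes called higher. In 6KO1 the same 4 genes rose, with 20.6% of all genes called higher. In E2, 2 rose (Irf5 and Irf7), with 2.90% of all genes. In E1E2, 4 rose (Irf5, Irf7, Irf9 and Stat2), with 5.51%. In E1E2G9Gl, 3 rose (Irf7, Irf9 and Stat2), with 16.8%, and in 6KO2 3 rose (Irf5, Irf7 and Irf9), with 15.3%. The count in E1 became 0 without replicate 2 or without replicate 3 of WT. Without replicate 2 of WT the counts in the other 6 mutants stayed as given. As given above, leaving out 1 library also added Irf2 in 6KO1 and E1E2, Irf9 in E2 and Stat2 in 6KO2, and removed Irf9 in 6KO2.

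By edgeR, 0 of the 8 genes were called lower than WT in any mutant, and DESeq2 also called 0. The shares of all genes called lower were 1.99% in E1, 5.11% in E1S1S2, 10.2% in 6KO1, 3.21% in E2, 3.22% in E1E2, 8.41% in E1E2G9Gl and 5.39% in 6KO2. At an unadjusted p under 0.05, 2 genes were lower in E1E2G9Gl (Irf1 and Irf5) and 1 in 6KO2 (Irf3), and 0 in the other 5 mutants.

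**Figure D2:**
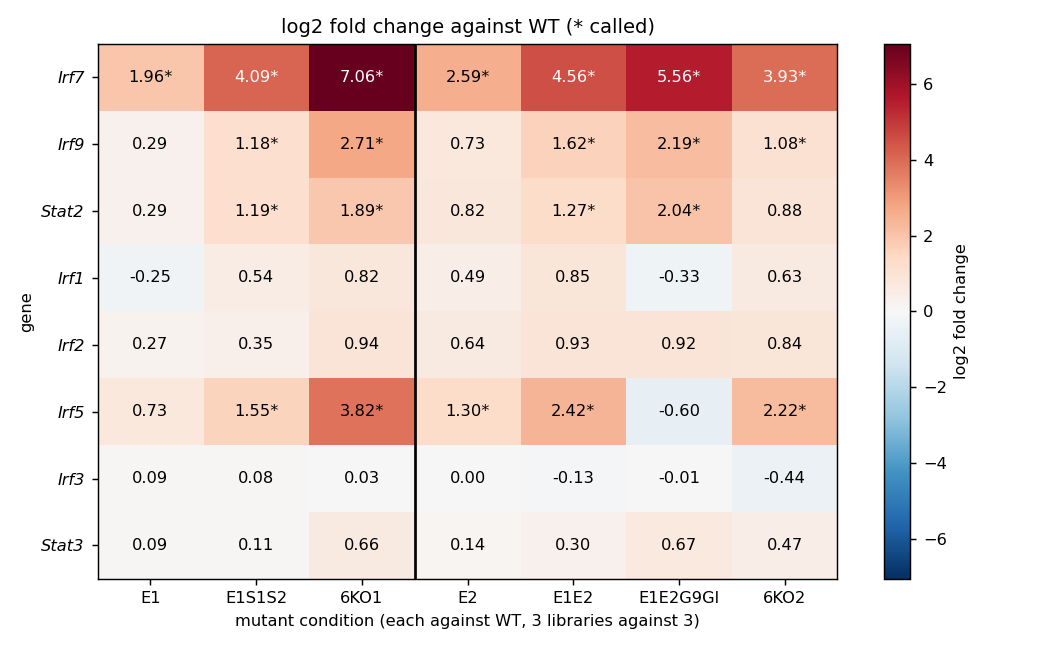
Log2 fold change of 8 genes (y axis) in each mutant against WT (x axis, 3 libraries against 3); red is higher, blue is lower, and a star marks a called difference. Irf7 is starred in all 7 mutants, from 1.96 to 7.06, and Irf1, Irf2, Irf3 and Stat3 in none.

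The clones of the first series, WT, E1, E1S1S2 and 6KO1, were compared step by step to ask what each further loss added. From E1 to E1S1S2, 1 of the 8 genes rose, Irf7 by 2.13 on the log2 scale (SE 0.28, adjusted p = 1.47e-06 in edgeR), with 4.31% of all genes called higher. From E1S1S2 to 6KO1, 3 rose, with 16.3% of all genes called higher: Irf7 by 2.97 (SE 0.23, adjusted p = 9.92e-11 in edgeR), Irf5 by 2.27 (SE 0.15) and Irf9 by 1.53 (SE 0.18). Irf7 was the only one of the 8 genes called at each step of this series, and its first step, from WT to E1, was lost without replicate 2 or replicate 3 of WT. From E1 to E1S1S2 the log2 fold changes of Irf5 and Irf9 were 0.82 and 0.89; the difference between these steps was not tested.

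The second series, WT, E2, E1E2, E1E2G9Gl and 6KO2, did not climb throughout. From E2 to E1E2, 2 genes rose, Irf7 by 1.97 (SE 0.27) and Irf5 by 1.12 (SE 0.16), with 2.32% of all genes called higher. Replicate 2 of E2 was low for Irf5, Irf7, Irf9 and Stat2, and it bore on this step: without it Irf7 rose by 1.51 and Irf5 was at 0.87, not called. Irf5 was also not called, at 0.93, without replicate 1 of E1E2, which left a count of 1. Without replicate 1 or replicate 3 of E2, Irf9 was called as well, at 1.11 and 1.05 in place of 0.89.

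From E1E2 to E1E2G9Gl, 2 of the 8 genes fell, with 6.78% of all genes called lower: Irf5 by 3.03 (SE 0.19, adjusted p = 2.34e-12 in edgeR) and Irf1 by 1.17 (SE 0.13, adjusted p = 2.26e-08). Over the same step edgeR called 0 of the 8 genes higher, where 14.8% of all genes were, so that count is near the share of all genes; 4 were higher at an unadjusted p under 0.05 and 1 by DESeq2, Irf7. Irf7 stood at the limit, at 0.998 (SE 0.22); without replicate 2 of E1E2 it was at 1.09 and called, and without replicate 2 of E1E2G9Gl at 1.01 and called. Irf9 was at 0.58 and Stat2 at 0.76.

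From E1E2G9Gl to 6KO2, the directions turned. Irf5 rose by 2.82 (SE 0.19, adjusted p = 2.14e-11 in edgeR), the only gene of the 8 to rise, with 7.19% of all genes called higher. Irf1 was at 0.96, and was called without replicate 1 (1.06) or replicate 3 (1.03) of 6KO2. Irf7 fell by 1.63 (SE 0.23, adjusted p = 2.97e-06 in edgeR), Irf9 by 1.12 (SE 0.19) and Stat2 by 1.15 (SE 0.13), 3 of the 8 genes where 9.12% of all genes were called lower. Without replicate 2 of 6KO2, the lowest of its condition for these genes, Irf9 was at -0.95 and not called, while Irf7 at -1.38 and Stat2 at -1.02 were. Irf5, and Irf1 by its value, thus went against Irf7, Irf9 and Stat2 on this step as on the one before it, where of these only Irf5 and Irf1 were called.

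Both 6KO1 and 6KO2 lack all 6 enzymes, reached in a different order from different clones. In 6KO1, 4 of the 8 genes were higher than in 6KO2, where 9.77% of all genes were: Irf7 by 3.13 (SE 0.23, adjusted p = 9.05e-11 in edgeR), Irf9 by 1.63 (SE 0.19), Irf5 by 1.61 (SE 0.14) and Stat2 by 1.01 (SE 0.13). No library of 6KO2 overlapped 6KO1 for these genes. The call for Stat2 was at the limit: it was lost without replicate 1 of 6KO1 (0.995), without replicate 3 of 6KO1 (0.989) and without replicate 2 of 6KO2 (0.88).

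**Figure D3:**
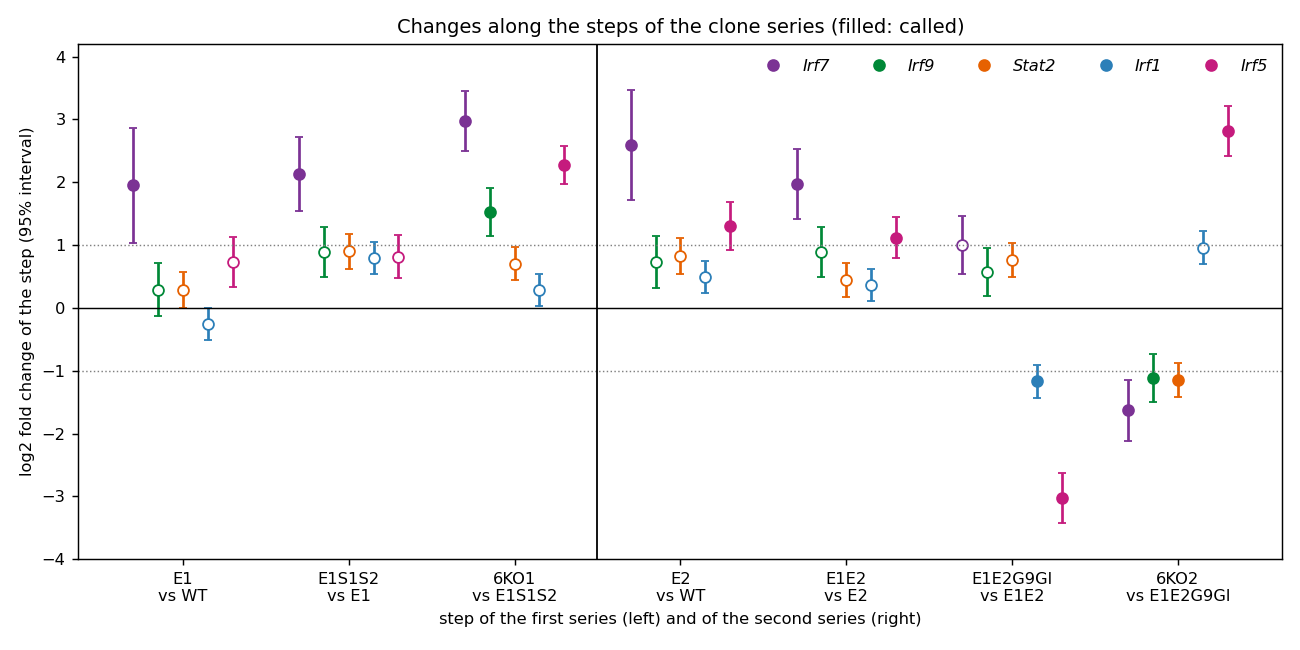
Log2 fold change (y axis, points with 95% intervals, filled where called) of Irf7, Irf9, Stat2, Irf1 and Irf5 at each step of the clone series (x axis, 3 libraries against 3). Irf5 falls by 3.03 from E1E2 to E1E2G9Gl and rises by 2.82 from there to 6KO2, where Irf7, Irf9 and Stat2 fall by 1.63, 1.12 and 1.15.

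The effect of 4-OHT in the parent (E1 against WT) was set against its effect in the Eset2 mutant clone (E1E2 against E2) by an interaction term. By edgeR 0 of the 8 genes differed, where 3.43% of all genes tested did; at an unadjusted p under 0.05, 2 were higher and 1 lower in the Eset2 mutant, and DESeq2 called 0. For Irf7 the difference was 0.017 on the log2 scale (SE 0.88, confidence interval -1.8 to 1.84). It ran from -0.45 to 0.34 when a library was left out. The interval holds an equal effect in parent and mutant and also differences above 2-fold either way, so the test cannot tell these apart. The effect of losing Suv39h1 and Suv39h2 was compared in the same way between E1 (to E1S1S2) and E1E2G9Gl (to 6KO2). Here 4 of the 8 genes differed, where 16.5% of all genes did. The loss went with more Irf5 in the second background than in the first, by 2.0 on the log2 scale (adjusted p = 9.47e-07 in edgeR), and with less Irf7 (-3.76, adjusted p = 1.13e-08), Irf9 (-2.01) and Stat2 (-2.05).

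The genes around these factors were described from lists of ligands, receptors, adaptors, regulators and targets. The ligand list holds 11 interferon genes, and none of them passed the filter: Ifnb1, the gene of interferon-beta, reached at most 7 counts in a library, with a mean of 0.182 CPM in 6KO1 and 0 in WT, and Ifng was at 0 throughout. Of the 6 ligands tested, 3 rose and 1 fell in 6KO1, where 20.6% of all genes were called higher and 10.2% lower: Csf1 by 2.30 and Il11 by 1.64 on the log2 scale, Il6 from 0.0393 to 5.04 CPM, and Ctf1 fell by 1.06. Of the 15 receptors and Janus kinases, all tested, 3 rose and 1 fell in 6KO1, with a median log2 fold change of 0.17 over the 14 that have one, against 0.06 for all genes; Ifnlr1 was at 0 in WT and in 6KO1. Il6ra rose by 2.39, Osmr by 1.29 and Jak2 by 1.20, while Lifr, the receptor of leukaemia inhibitory factor, fell by 4.39.

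Of 16 sensing adaptors and kinases upstream of IRF3 and IRF7, 1 rose in 6KO1, Ticam1 by 1.05, and the median was 0.24. Of 24 negative regulators, 5 rose and 1 fell, with a median of 0.17. Usp18, which shuts off signalling at the interferon receptor and is itself induced by interferon, went from 0.177 CPM in WT to 68.4 in 6KO1, 48.1 in E1E2G9Gl and 8.02 in 6KO2. Socs2 rose by 3.94 and Rnf125 by 2.07, and Ptpn6 fell by 1.49. The numbers that rose among the receptors and the negative regulators were thus near the 20.6% of all genes called higher in 6KO1.

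All 50 interferon-stimulated targets of IRF9, STAT2 and IRF7 listed were tested. In 6KO1, 46 rose and 0 fell, with a median log2 fold change of 3.29 against 0.06 for all genes tested. The largest changes were in Oas3, from 0.0898 CPM in WT to 109, Trim30a, from 0.171 to 177, Oas1g, from 0.0393 to 37.1, and Oas2, from 0.0541 to 40.1. In WT, Oas3, Oas1g and Oas2 lay below the level of 3 counts per library (0.108 to 0.126 CPM), so their rank is uncertain. The number that rose was 11 in E1 (median 0.58), 36 in E1S1S2 (1.86), 17 in E2 (0.96), 41 in E1E2 (2.04), 39 in E1E2G9Gl (2.48) and 35 in 6KO2 (1.71). In the same order, 2.27%, 6.65%, 2.90%, 5.51%, 16.8% and 15.3% of all genes were called higher, and 20.6% in 6KO1. In E1E2G9Gl 1 of the 50 also fell, Ccl5.

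The list of 32 targets of IRF1 and interferon-gamma, 29 of them tested, rose widely too in 6KO1, where 25 were higher and 1, Lap3, was lower. Its median log2 fold change was 4.61, and 3.84 when Nos2, Casp1 and Il15, at 0 in every WT library, were set to the bound that 3 counts per library allows. Gbp4 went from 0.012 CPM in WT to 25 in 6KO1, Iigp1 from 0.0385 to 28.0, Tgtp1 from 0.216 to 78.1 and Gbp9 from 0.159 to 51.1. The WT means of Gbp4 and Iigp1 lay below the level of 3 counts per library. In E1E2G9Gl, where Irf1 was below WT, 21 of the 29 rose and 1 fell, and in 6KO2 22 rose and 0 fell. Of all genes, 16.8% were called higher and 8.41% lower in E1E2G9Gl, and 15.3% and 5.39% in 6KO2. Of 21 STAT3 targets tested, 4 rose and 2 fell in 6KO1, with a median of 0.09, and these counts are near the 20.6% higher and 10.2% lower of all genes. Cebpd rose by 1.31 and Osmr by 1.29 on the log2 scale, Fos fell by 2.14, and Fgl2 went from 0.182 CPM in WT to 0.

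**Figure D4:**
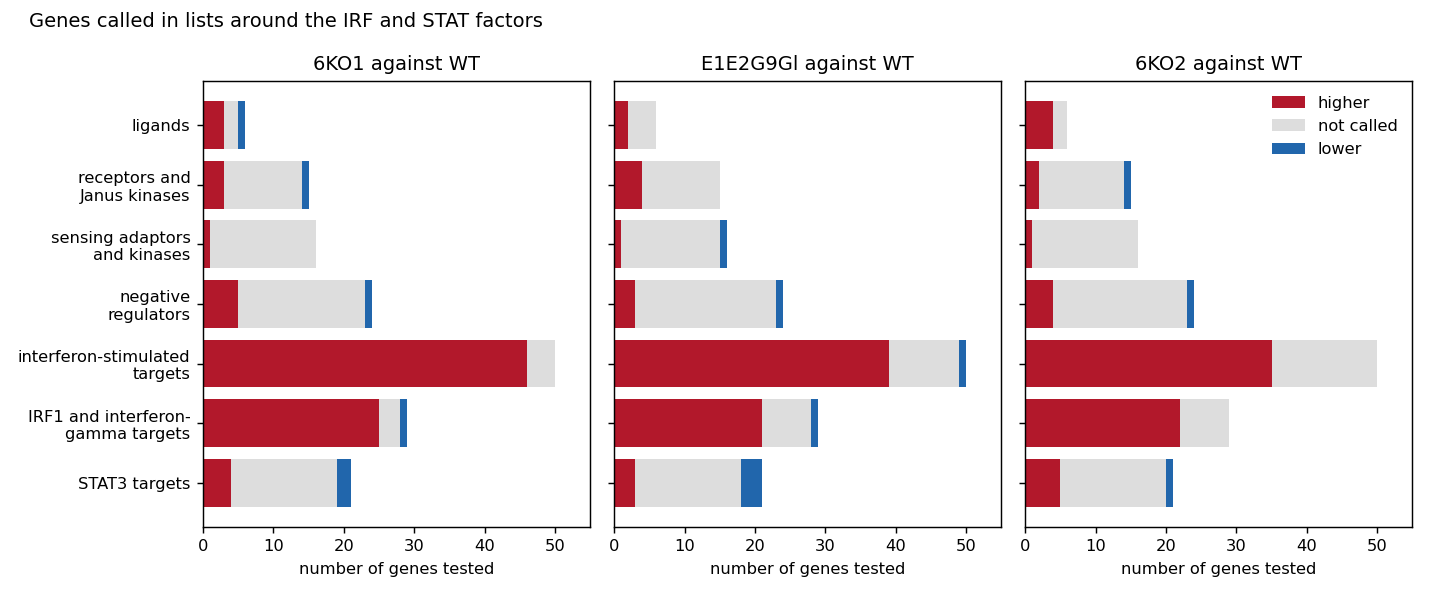
Number of genes tested (x axis) that were called higher (red), not called (grey) or called lower (blue) than WT in 7 lists (y axis), in 6KO1, E1E2G9Gl and 6KO2. Of the 50 interferon-stimulated targets 46, 39 and 35 are higher, against 1 of the 16 sensing adaptors and kinases in each.

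The targets also fell with Irf7, Irf9 and Stat2 from E1E2G9Gl to 6KO2: 25 of the 50 interferon-stimulated targets fell and 3 rose. On this step 9.12% of all genes were called lower and 7.19% higher. The median log2 fold change of the targets was -1.04, against 0.02 for all genes. The 3 that rose, Ccl5 by 4.59, Cxcl10 by 2.31 and Zbp1 by 1.75, are named after their values were seen. They had fallen from E1E2 to E1E2G9Gl, by 5.62, 3.75 and 2.92, and so took the direction of Irf1 and Irf5 on both steps. On that earlier step 19 of the 50 targets rose and 7 fell, where 14.8% of all genes were called higher and 6.78% lower. The interaction term for the loss of Suv39h1 and Suv39h2 was called for 43 of the 50, 3 higher and 40 lower, with a median of -1.95. Of all genes, 7.71% were called higher and 8.76% lower in that term. From 6KO2 to 6KO1, 38 of the 50 were higher and 0 lower, with a median of 1.85, where 9.77% of all genes were called higher and 7.1% lower.

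Markers of other cell types were read beside these results. Of 20 blood cell markers, 9 were tested. In 6KO1, where 20.6% of all genes were called higher and 10.2% lower, 6 of these markers rose and 1 fell. Ptprc, Itgam, Fcgr1, Lyz2 and Cd3e were at 0 in every WT library and passed the filter only through mutants. They could not be called lower than WT, so the shares of all genes are no measure for these counts. The summed level of the 20 markers was 6.67 to 7.58 CPM in the WT libraries, 6.52 to 7.19 in E1, 9.16 to 10.2 in E1S1S2, 28.9 to 31.6 in 6KO1, 6.02 to 7.37 in E2, 10.3 to 12.1 in E1E2, 33.8 to 36.0 in E1E2G9Gl and 10.3 to 12.2 in 6KO2. Cd68, a lysosomal protein of macrophages that fibroblasts also make, was the most abundant in 6KO1 at 18.4 to 20.8 CPM, and Itgam was the most abundant in E1E2G9Gl at 19.7 to 20.5. Lyz2 had a mean of 6.01 CPM in E1E2G9Gl against 0 in WT. Other markers of the list were lower in E1E2G9Gl than in WT: Cd68 at 3.40 CPM against 3.89, Cd14 at 1.18 against 2.36 and Flt3 at 0.0305 against 0.464. Adgre1, which defines mouse macrophages, was at 0 in all 24 libraries, and Ptprc, which defines blood cells, was at 0 in every WT library and averaged 0.619 CPM in 6KO1 and 1.89 in E1E2G9Gl. The sum of 12 epithelial and endothelial markers was 2.11 to 3.09 CPM in WT, 35.3 to 35.6 in 6KO1, 15.4 to 16.3 in E1E2G9Gl and 28.7 to 31.3 in 6KO2, with Krt8 the most abundant in 6KO1 and Krt14 in 6KO2. It was 6.90 to 8.09 CPM in E1, 13.1 to 16.3 in E1S1S2, 9.64 to 11.8 in E2 and 6.78 to 9.58 in E1E2. Mean Krt8 was 0.985 CPM in WT, 5.23 in E1, 10.6 in E1S1S2 and 16.7 in 6KO1, where Krt14 was at 9.71. The markers did not all move alike: from WT to 6KO1 Vwf went from 0.0481 to 3.02 CPM, but Epcam from 0.436 to 0.0578. The blood cell sum, largely Cd68 in 6KO1 and Itgam in E1E2G9Gl, was thus highest in the conditions with the most Irf7, Irf9 and Stat2. The epithelial and endothelial sum, but not each of its markers, climbed from WT over E1 and E1S1S2 to 6KO1 as Irf7 did. In the second series the epithelial and endothelial sum went against Irf7 on 2 steps. Its mean fell from 10.6 CPM in E2 to 8.06 in E1E2, where Irf7 rose. It went from 15.9 CPM in E1E2G9Gl to 30.4 in 6KO2, where Irf7 fell. The part of either sum in those results was not tested. In bulk RNA, fewer cells of a type and less RNA per cell cannot be told apart.

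The genes most like each of the 4 genes called against WT in at least 1 mutant were found by the Pearson correlation of log2 CPM over the 24 libraries, which fall into 8 conditions, so these values are descriptions. Irf7 was most like Parp12 (r = 0.984), Oasl2 (0.983) and Ifit3 (0.980). Irf9 was most like Ifit3 (0.974), Irf7 (0.973) and Ddx58, the gene of the RNA sensor RIG-I (0.970). Stat2 was most like Parp12 (0.975), Rtp4 (0.968) and Ddx58 (0.962), so that interferon-stimulated genes stood nearest to all 3. Irf5 was most like Prkcd (0.965), Ano3 (0.958) and Mdm2 (0.957), and its correlation was 0.861 with Irf1 and 0.553 with Irf7.

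**Figure D5:**
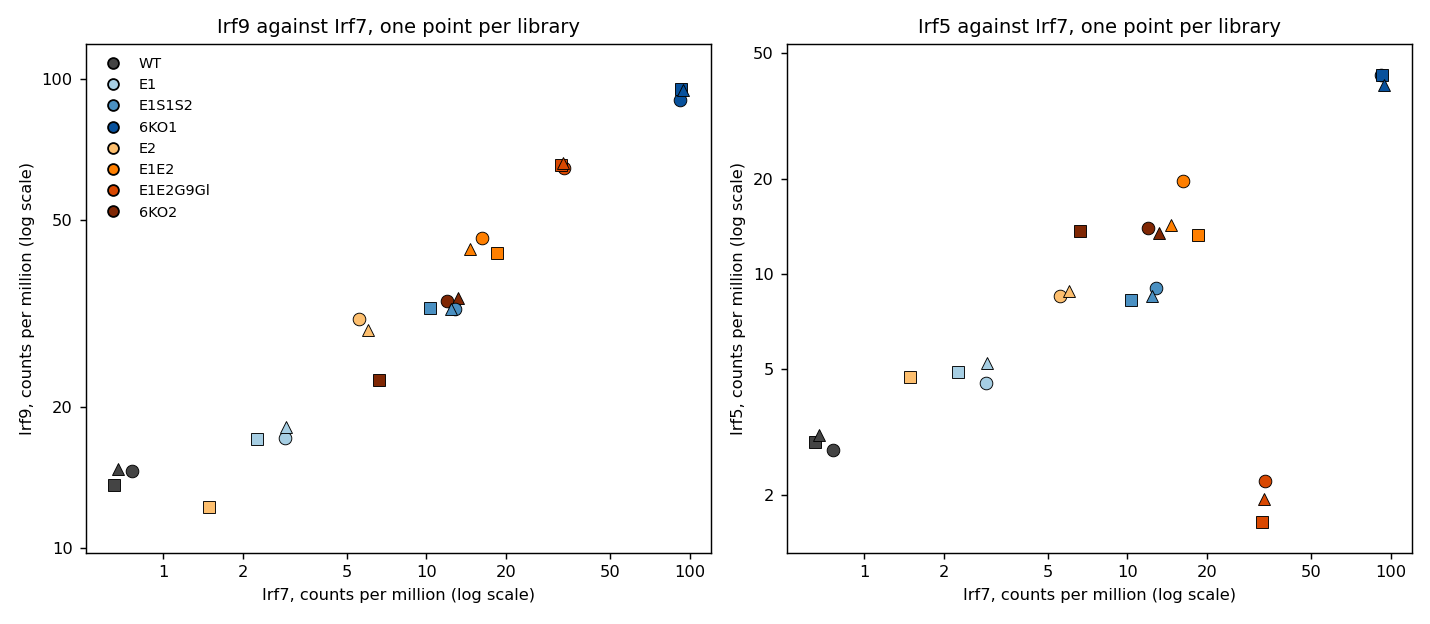
Irf9 (left) and Irf5 (right) against Irf7 in CPM, both axes on log scales, with a point for each of the 24 libraries, coloured by condition and shaped by replicate. Irf9 climbs with Irf7 (r = 0.973), while the E1E2G9Gl libraries, with 32.5 to 33.2 of Irf7, hold the lowest levels of Irf5, 1.64 to 2.22.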

How the data were processed

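RNA from 24 libraries was sequenced with a stranded total RNA kit. The authors trimmed reads with cutadapt 1.8.1, aligned them with STAR 2.5.2b and, with TEtranscripts, deposited raw counts for 47937 genes and 1445 repeat elements; their strand setting is not stated. Of the table's entries, 1 was malformed and was left out. Ensembl IDs were matched to symbols and GRCm38 exons, and 47224 had a symbol.

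Gene counts were scaled by TMM and fitted in edgeR 4.0.16 (R 4.3.3, limma 3.58.1) with 1 coefficient for each of the 8 conditions, after edgeR's own filter on low counts. The quasi-likelihood F test was two-sided with Benjamini-Hochberg adjustment over 18565 genes, and SE is the log2 fold change divided by the root of F. The scripts were tested on simulated counts. Total counts of 24737307 or more per library make counting error small except for genes under a few CPM. CPM per kilobase uses merged exons.

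The genes named are the 9 factors, the 3 genes most correlated with each factor called against WT, up to 4 called genes per list with the largest change in 6KO1, and the top and zero markers. The methyltransferase genes are named to check the labels, and other genes outside this rule were chosen after their values were seen. The members and lists were chosen with earlier results of these data known. Promoters are from RefSeq, matched by symbol for all 9 genes. Alternatives were DESeq2 1.42.0, RLE factors, library sizes with repeats, no filter, no fold minimum, only the compared libraries, a replicate block and each library left out. The identity of the proteins was not computed, since no protein sequences were used.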

Additional observations from a re-analysis of the deposited data

Results flagged for a closer look

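For 4 of the genes, the effect of losing Suv39h1 and Suv39h2 differed between the backgrounds in an edgeR interaction test, that is, between the step from E1 to E1S1S2 and the step from E1E2G9Gl to 6KO2. Of all genes tested, 16.5% were called in the same test. The difference, second background minus first on the log2 scale, was 2.0 for Irf5 (95% interval 1.46 to 2.54), -3.76 for Irf7 (-4.52 to -3.0), -2.01 for Irf9 (-2.57 to -1.45) and -2.05 for Stat2 (-2.43 to -1.67). Irf7 rose by 2.13 in the first background and fell by 1.63 in the second, while Irf5 had a log2 fold change of 0.82 in the first and rose by 2.82 in the second. Each of the 4 was also called when any 1 of the 12 libraries was left out, with ranges of 1.85 to 2.12, -3.95 to -3.52, -2.10 to -1.84 and -2.19 to -1.92. Each background is 1 clone at each step, so the background, the other enzymes lost and the clone cannot be told apart. By the study's methods, the step from E1 to E1S1S2 also adds the further CreERT2 construct and puromycin. Both lines of the step from E1E2G9Gl to 6KO2 carry CRISPR/Cas9 mutations and so had them already. This difference cannot be told apart from the others.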

How the results depend on the processing

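Dropping the 2-fold minimum raised the counts of genes called higher, and the share of all genes called with them (in brackets). The number higher than WT was then 2 in E1 (6.72%), 6 in E1S1S2 (19.9%), 7 in 6KO1 (35.9%), 6 in E2 (12.5%), 7 in E1E2 (16.3%), 5 in E1E2G9Gl (30.9%) and 7 in 6KO2 (29.5%), and 1 was lower in 6KO2 (25%). On the steps, the number higher was 5 from E1 to E1S1S2 (16.1%), 6 from E1S1S2 to 6KO1 (30.4%), 3 from E2 to E1E2 (6.58%), 4 from E1E2 to E1E2G9Gl (28.7%), 2 from E1E2G9Gl to 6KO2 (21.3%), where 4 were lower (22.3%), and 5 in 6KO1 against 6KO2 (25%). From E1E2 to E1E2G9Gl the count higher was 1, Irf7, with RLE factors, with DESeq2 and with only the compared libraries, since its value crossed the limit. With each library left out, the counts higher ran from 0 to 1 for E1 against WT, 1 to 3 for E1E2 against E2, 0 to 1 for E1E2G9Gl against E1E2 and 1 to 2 for 6KO2 against E1E2G9Gl. Stat2 in 6KO1 against 6KO2 was not called with repeats in the library sizes (0.976), without the filter (0.995) or with only the compared libraries (0.997).

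Signs turned only for uncalled values near 0, and the cause was not tested. For Irf3 these were 6KO1 against WT (-0.044 with repeats in the library sizes, -0.0060 without the filter, -0.012 to 0.069 with a library left out), E2 against WT (0.0044 with RLE factors, 0.024 with only the compared libraries, 0.0042 with DESeq2, -0.038 to 0.039), E1E2G9Gl against WT (0.018, 0.0050 and 0.017 in the same order, -0.050 to 0.032) and E1S1S2 against E1 (0.0037, 0.0083 and 0.0045 in that order, 0.0078 with repeats, 0.0074 without the filter, -0.037 to 0.041). For Irf2, E1E2G9Gl against E1E2 was 0.018 with RLE factors and 0.018 with DESeq2 (-0.045 to 0.022 with a library left out). The difference in the 4-OHT effect was -0.011 for Irf7 with only the compared libraries and -0.031 with DESeq2 (-0.45 to 0.34); for Irf2 it ran from -0.053 to 0.14 and for Stat2 from -0.013 to 0.29. Stat3 ran from -0.023 to 0.16 in E1 against WT, -0.0038 to 0.18 in E1S1S2 against WT and -0.026 to 0.059 in E1S1S2 against E1, and the Suv39h difference of Irf1 from -0.024 to 0.27.

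Replicate numbers do not pair libraries: residuals of libraries with the same number had a mean correlation of 0.0051 over 84 pairs. With the replicate block, all 120 log2 fold changes kept their sign and their side of the threshold, and Irf7 in 6KO1 against WT was at 7.07. An alternative chosen after seeing the data, the count of interferon-stimulated targets with each library left out, was 46 throughout in 6KO1 and ran from 15 to 25 in E2 and 30 to 37 in 6KO2. Depth limits Irf8, the interferon genes and Irf7 in WT, which had a mean of 17.7 counts. Pairs of replicates left by leaving 1 out are assumed to vary like the other conditions.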
